A study of Homo sapiens with 4 samples.

Results

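The genes described here are 9 genes of human chromosomes 1, 2, 8, 9, 12 and 19 that encode the low-affinity IgG receptors and the myeloid signalling molecules around them. They are FCGR2A, FCGR2B and FCGR2C, the adaptor gene FCER1G, the sialic-acid-binding receptor gene CD33, the kinase genes LYN and SYK, and the phosphatase genes PTPN6 and INPP5D. They were chosen by name, with earlier results of these data known, and were matched by symbol to the deposited expression values. The summed expected count was to decide between IDs of 1 symbol, but each symbol had 1 gene ID, so 9 of the 61498 genes are members. The differences between conditions were in view when the list was drawn up, so counts over it carry no test.

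The data are 4 poly(A) RNA-seq libraries of K562, an established human erythroleukaemia cell line. In 2 libraries the cells were untreated, and in the other 2 they had been cultured with 50 µM hemin, the iron porphyrin used to drive the line toward the erythroid state, for 108 h. All 4 libraries share the cell line, the culture medium, the poly(A) selection and the library kit, and the labels name no vehicle for the untreated cells. Nothing in the labels says whether replicate libraries came from separate cultures, so p-values measure only the spread between these libraries, which may be technical.

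Fcγ receptors bind the constant part of IgG and tell a myeloid cell that a particle is coated with antibody. FCGR2A and FCGR2C carry an activating motif, the ITAM, in their own cytoplasmic tail, whereas FCGR2B carries an inhibitory motif, the ITIM, and most other activating Fc receptors borrow the ITAM of the γ chain encoded by FCER1G. A Src family kinase such as LYN phosphorylates the motif tyrosines. A phosphorylated ITAM then binds the kinase SYK, and a phosphorylated ITIM binds the tyrosine phosphatase SHP1 (PTPN6) or the inositol phosphatase SHIP1 (INPP5D). CD33 is a siglec with ITIM-like motifs found on early myeloid cells, and K562 cells are known to carry FcγRII on their surface.

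FCGR2A, FCGR2C and FCGR2B lie in that order on the plus strand of chromosome 1. In GRCh38 with GENCODE 44 coordinates they span chr1:161505430-161524013, chr1:161581339-161605662 and chr1:161663143-161678654. FCGR2C starts 57.3 kb and FCGR2B 139.1 kb after the end of FCGR2A. The last coding exon is shown first, because it holds the motif that separates activating from inhibitory members. Capitals mark each tyrosine codon that is followed, after a pair of codons, by a leucine or isoleucine codon.
FCGR2A, chr1:161517975-161518145, plus strand: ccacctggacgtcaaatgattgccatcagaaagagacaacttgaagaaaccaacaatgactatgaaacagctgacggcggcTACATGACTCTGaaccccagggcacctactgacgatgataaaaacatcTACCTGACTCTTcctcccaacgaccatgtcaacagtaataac
FCGR2C, chr1:161599630-161599800, plus strand: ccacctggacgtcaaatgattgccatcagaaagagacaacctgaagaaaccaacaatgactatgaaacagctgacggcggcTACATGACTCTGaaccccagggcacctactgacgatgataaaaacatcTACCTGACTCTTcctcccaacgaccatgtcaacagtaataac
FCGR2B, chr1:161677476-161677550, plus strand: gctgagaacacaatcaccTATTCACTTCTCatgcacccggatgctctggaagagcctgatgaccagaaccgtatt
The exons of FCGR2A and FCGR2C are both 171 bases long, differ at 1 base and hold 2 such motifs with 12 codons between them, the ITAM. The exon of FCGR2B is 75 bases long and holds 1 motif, the ITIM.

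The exon of the second extracellular domain shows the opposite pairing. It is 255 bases long in all 3 genes, and capitals mark the 8 positions at which FCGR2A differs from the others.
FCGR2A, chr1:161509820-161510074, plus strand: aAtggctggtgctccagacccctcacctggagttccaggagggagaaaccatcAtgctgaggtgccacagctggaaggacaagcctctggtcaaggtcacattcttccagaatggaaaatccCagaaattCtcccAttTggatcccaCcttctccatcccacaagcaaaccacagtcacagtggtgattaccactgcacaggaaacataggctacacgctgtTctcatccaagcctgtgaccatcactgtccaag
FCGR2B, chr1:161672975-161673229, plus strand: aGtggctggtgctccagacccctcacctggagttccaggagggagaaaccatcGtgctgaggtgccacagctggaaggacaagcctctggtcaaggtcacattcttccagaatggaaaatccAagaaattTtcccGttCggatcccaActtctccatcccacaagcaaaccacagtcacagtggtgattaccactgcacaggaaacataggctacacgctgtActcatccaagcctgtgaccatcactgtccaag
FCGR2C, at chr1:161591144-161591398, has the same 255 bases as FCGR2B. The transmembrane exon (114 bases) and the exons of the signal peptide (112 and 21 bases) are also identical between FCGR2B and FCGR2C, and the exon of the first extracellular domain differs at 3 of 258 bases. FCGR2C thus matches FCGR2B over its outer domains and FCGR2A over its tail. Of the 50-base words in its transcripts, 54.2% occurred in no other gene, against 73.9% for FCGR2A and 83.2% for FCGR2B. FCGR2C shared 26.2% of its words with FCGR2B and 17.9% with FCGR2A. The other 6 members had 98.9% to 100% unique words, so their counts rest little on how shared reads were divided.

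FCGR2A was by far the most abundant member. It had 220 and 223 TPM (the abundance of transcripts scaled by their length and by depth) in the untreated libraries and 105 and 109 TPM in the hemin-treated ones, which ranked it 711 of all genes by mean TPM. The groups did not overlap, and both hemin-treated libraries stood near the middle of the distance between the untreated level and 0. The corresponding means were 221 ± 2.44 and 107 ± 2.76 TPM (SD, n = 2 each).

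LYN followed with 54.0 and 51.0 TPM in the untreated and 55.8 and 61.0 TPM in the hemin-treated libraries. CD33 had 45.9 and 50.8 TPM in the untreated and 44.1 and 42.1 TPM in the hemin-treated libraries. The lowest LYN value, 51.0 TPM, was just above the highest CD33 value, 50.8 TPM, so the ranges of these genes met but did not cross. The other 6 members were at 4.92 TPM or less in every library.

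**Figure D1:**
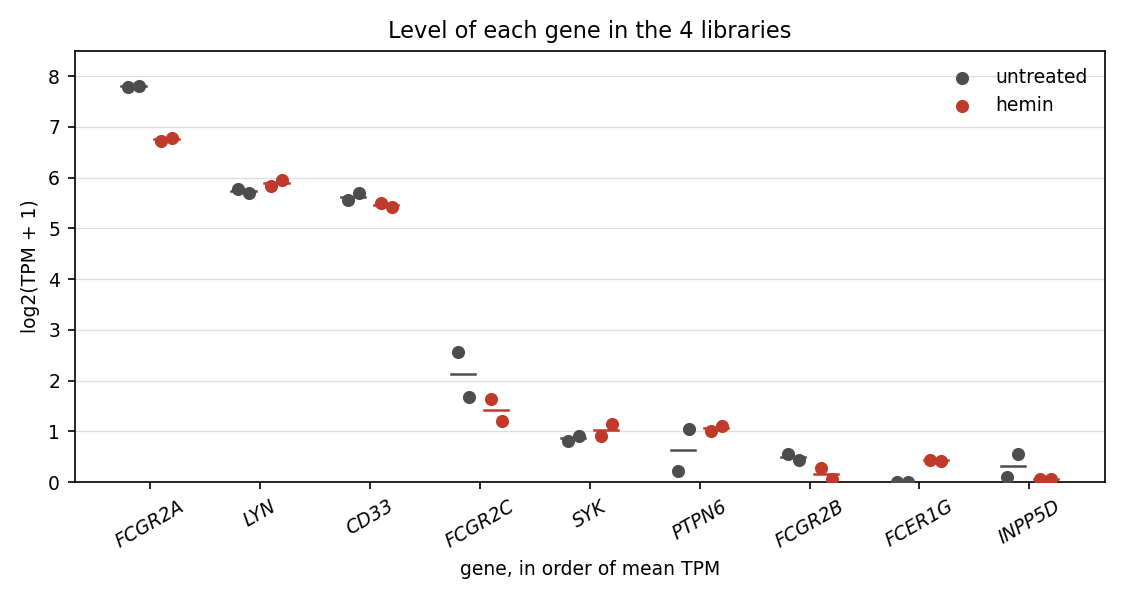
Levels of the 9 genes as log2(TPM + 1), with 1 point per library (2 untreated and 2 hemin-treated) and a short line at each group's mean. FCGR2A, LYN and CD33 stand apart from the other 6 genes, and FCGR2A is the gene whose groups are farthest apart.

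In the low group, FCGR2C had 4.92 and 2.22 TPM untreated and 2.13 and 1.31 TPM after hemin. SYK ranged from 0.76 to 1.21 TPM, PTPN6 from 0.17 to 1.15 TPM, FCGR2B from 0.04 to 0.47 TPM, FCER1G from 0 to 0.36 TPM and INPP5D from 0.05 to 0.47 TPM. For PTPN6, INPP5D and FCGR2B the interval that RSEM gives for the TPM lay above the printed TPM in every library. These intervals ran from 3.21 to 9.01, from 1.57 to 6.46 and from 0.216 to 2.54 TPM over the libraries. The printed TPM of these genes are thus rough. In TPM, FCGR2C lay above SYK in every library, but in hemin replicate 2 only at 1.31 against 1.21 TPM. The counts there ran the other way, 9 for FCGR2C and 15 for SYK, so this order is not resolved after hemin. The ranges of SYK and PTPN6 overlapped, as did those of PTPN6, FCGR2B, FCER1G and INPP5D, so the order among these genes is not resolved beyond their spread.

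In all, 14458 genes passed the filter on low counts. Of these, 2045 (14.1%) had a Benjamini-Hochberg adjusted p below 0.05 in the quasi-likelihood test of edgeR. Among the latter, 1012 were higher (7%) and 1033 lower (7.14%) after hemin. With library size alone as the scaling the split was 729 higher and 1358 lower. Of the 9 members, 5 passed the filter (FCGR2A, FCGR2C, CD33, LYN and SYK) and 2 passed the threshold, FCGR2A as lower and LYN as higher. FCGR2B, FCER1G, PTPN6 and INPP5D had too few counts to be tested.

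FCGR2A, the activating receptor, fell after hemin in both libraries. Its expected counts, the reads that the quantification assigned to it, were 1761 and 1812 in the untreated libraries and 853 and 972 in the hemin-treated libraries. The log2 fold change was -0.98 (SE 0.055, 95% interval -1.10 to -0.85, edgeR adjusted p = 3.03e-05). This is 1.97-fold lower, with an interval of 0.466 to 0.553 for the ratio of hemin to untreated. Among the 1033 decreases it ranked 6 by p and 173 by size. In bulk RNA, fewer cells transcribing the gene and less transcript per cell cannot be told apart.

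The decrease did not depend on how reads were divided within the family. The posterior SD that RSEM gives for the division of reads among all genes, within the family or outside it, was 1.39% to 1.83% of the FCGR2A count. FCGR2A, FCGR2B and FCGR2C together had 1793 and 1834 counts in the untreated and 870 and 982 counts in the hemin-treated libraries. The sum changed by -0.98 on the log2 scale (SE 0.053, edgeR adjusted p = 2.74e-05).

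A further gene also draws on FCGR2A reads. ENSG00000289273 is annotated as a separate long noncoding RNA of 864 bases at chr1:161518705-161519568 on the same strand, inside the 3′ UTR of the FCGR2A transcript ENST00000271450 (chr1:161518146-161519829). All 815 of its 50-base words also occur in FCGR2A transcripts, so no read of this length tells it from FCGR2A. It held 242 and 206 counts in the untreated and 133 and 84 counts in the hemin-treated libraries, with a posterior SD of 10% to 20.2% of the count. Its log2 fold change was -1.05 (SE 0.19, edgeR adjusted p = 0.00796). This is not a result apart from FCGR2A, because its counts are a share of reads that match FCGR2A as well. With its counts added to FCGR2A, a setting chosen after the values were seen, the locus had 2004 and 2018 against 985 and 1055 counts. The log2 fold change was then -0.99 (SE 0.048, edgeR adjusted p = 1.29e-05), so the fold change of the locus does not turn on which of these genes the reads belong to, whereas the TPM of FCGR2A does.

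**Figure D2:**
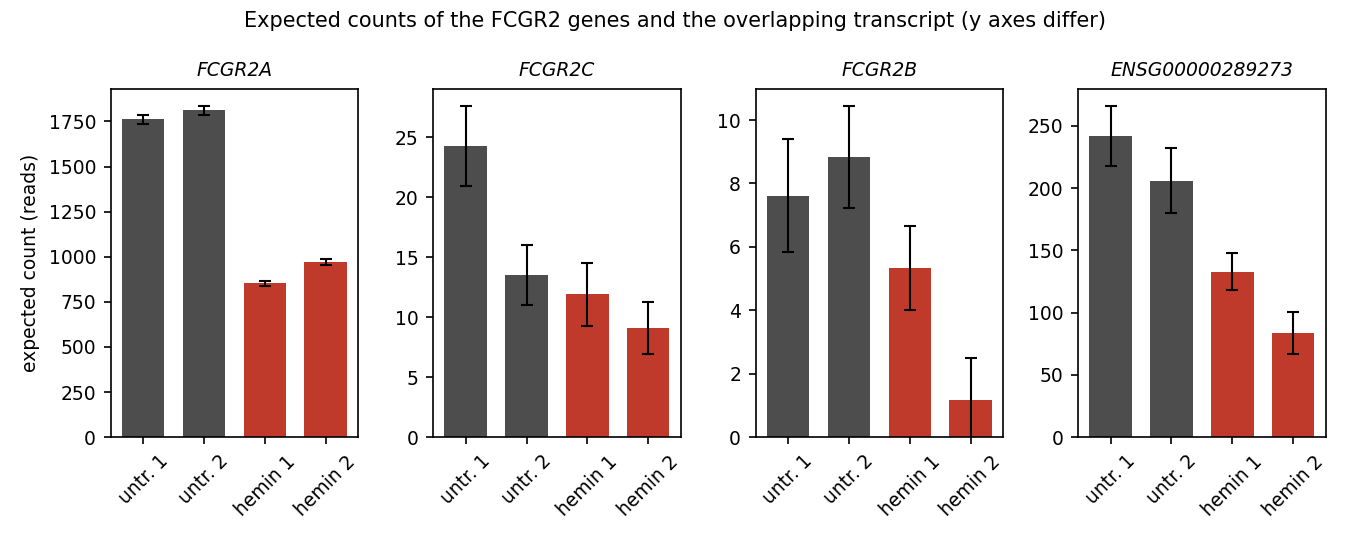
Expected counts of FCGR2A, FCGR2C, FCGR2B and the overlapping ENSG00000289273 in each of the 4 libraries, each on its own y axis from 0. Bars are the counts and lines are ± 1 posterior SD from RSEM. The untreated bars are higher than the hemin-treated bars in each panel, and the posterior SD is at most 1.83% of the count for FCGR2A and at least 10% in the other panels.

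FCGR2C carries ITAM codons and the outer domains of FCGR2B, but none of its 10 transcripts is annotated as plainly protein coding, and the one whose exons were compared, ENST00000466542, is marked as loss of function. It had 24 and 14 counts in the untreated and 12 and 9 counts in the hemin-treated libraries. The groups did not overlap, but the gap of 2 counts between them is smaller than the posterior SD of 2.17 to 3.37 counts in each library. The log2 fold change was -0.85 (SE 0.43, 95% interval -1.82 to 0.12, edgeR adjusted p = 0.231). The difference therefore was not past the threshold, and its interval holds both the value of FCGR2A and no change.

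FCGR2B, the inhibitory receptor, had 8 and 9 counts in the untreated and 5 and 1 counts in the hemin-treated libraries. Pooled over libraries this is 17 against 6 counts, a ratio of 0.351 at equal depth (exact 95% interval 0.113 to 0.933, which covers counting error only). With no count filter the log2 fold change was -1.45 (SE 0.72, edgeR adjusted p = 0.274). The length that RSEM gave the gene was 4680 bases in 3 of the libraries. That is the length of ENST00000480308, a retained-intron transcript, so in those libraries the few reads were all placed on a transcript that is not annotated as coding.

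Because FCGR2B and FCGR2C share the most sequence, their sum was tested too. It had 32 and 22 counts in the untreated and 17 and 10 counts in the hemin-treated libraries, with a log2 fold change of -0.99 (SE 0.39, 95% interval -1.88 to -0.10, edgeR adjusted p = 0.128). The interval is for this value alone, and the value was not past the threshold over all genes. FCGR2A made up 98.2% and 98.8% of the summed FCGR2 counts in the untreated libraries and 98.0% and 99.0% in the hemin-treated ones. The exact 95% intervals of these shares, for counting error only, ran from 96.9% to 99.5%, and the groups overlapped. A difference between the family members in their response was not detectable at this depth.

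The coding exons of the family are alike and their levels are not, so the 250 bases before the RefSeq start (GRCh38.p14) are shown for FCGR2A and for the start of FCGR2B at its GENCODE 5′ end. Capitals mark matches, on either strand, to AGATAA or TGATAA, the letters read by GATA factors, and to GAGGAA, which ETS factors such as PU.1 read.
FCGR2A, chr1:161505207-161505456, plus strand: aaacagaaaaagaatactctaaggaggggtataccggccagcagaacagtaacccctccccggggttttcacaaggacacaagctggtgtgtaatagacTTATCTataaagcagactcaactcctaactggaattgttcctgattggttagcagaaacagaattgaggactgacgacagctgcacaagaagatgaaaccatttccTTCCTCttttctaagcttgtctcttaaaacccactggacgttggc
FCGR2B, chr1:161662893-161663142, plus strand: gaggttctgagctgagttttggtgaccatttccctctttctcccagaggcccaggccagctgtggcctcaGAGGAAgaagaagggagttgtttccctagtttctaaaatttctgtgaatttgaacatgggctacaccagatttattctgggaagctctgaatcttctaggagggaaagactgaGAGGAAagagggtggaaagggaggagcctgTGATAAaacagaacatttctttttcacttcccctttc
FCGR2A holds 1 AGATAA and 1 GAGGAA, both on the minus strand, at positions 100 and 206 counted from the 5′ end of the window. FCGR2B holds TGATAA at position 214 and GAGGAA at positions 71 and 184, all on the plus strand. The window of the other RefSeq start of FCGR2B, chr1:161646993-161647242, held none of these motifs. Of 35116 promoters of this length, AGATAA was found in 9.17%, TGATAA in 6.66% and GAGGAA in 23.6%. The longer GAGGAAGT, which contains GAGGAA and is found in 2.17% of promoters, occurred in INPP5D and SYK and in neither FCGR2 promoter. RefSeq windows were searched for 7 of the 9 members, and FCGR2C and LYN were not among them. A match is a string of letters and was not tested as a binding site.

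The adaptor FCER1G, at chr1:161215234-161220699 and thus 284.7 kb before FCGR2A, was listed at 0 counts in both untreated libraries and at 1 count in each hemin-treated library. A count of 0 allows up to 3 counts, so no fold change is given. The other ITAM adaptors were as low. TYROBP (DAP12) had at most 1 count in any library, CD247 (the ζ chain) at most 1, and CD3E was at 0 in all 4. HCST (DAP10), an adaptor with a PI3 kinase binding motif in place of an ITAM, was also at 0. Of the list of 8 signalling adaptors and chains, HCST included, none passed the filter, and their summed level was 2.66 to 2.69 TPM in the untreated and 1.15 to 1.36 TPM in the hemin-treated libraries. The highest were CD3D, a T cell receptor chain, with 6 and 5 against 1 and 0 counts, and CD79B, a B cell receptor chain, with 1 and 1 against 3 and 4 counts. FCGR2A, whose ITAM is part of the receptor itself, was thus at 105 TPM or more where each of these chains was at 1.64 TPM or less.

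CD33, at chr19:51225064-51243860, had 353 and 350 counts in the untreated and 306 and 333 counts in the hemin-treated libraries. The hemin-treated libraries were both lower, and the log2 fold change was -0.15 (SE 0.074, 95% interval -0.31 to 0.02, edgeR adjusted p = 0.230). The value was not past the threshold, and its interval excludes a decrease as large as that of FCGR2A. Other receptors of its kind were mostly low. Of 42 other siglecs, leukocyte Ig-like receptors and related paired receptors with a gene ID, 12 were at 0 in every library, beside 28814 of all 61498 genes. Only 4 passed the filter and none of these passed the threshold, beside 14.1% called over all genes tested. Their median log2 fold change was 0.41, beside -0.0048 over all genes tested. PILRB, an activating paired receptor, had 50.7 and 54.4 TPM in the untreated and 46.0 and 37.3 TPM in the hemin-treated libraries (log2 fold change -0.16, edgeR adjusted p = 0.228). SIGLEC8 had 1.04 to 3.52 TPM.

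LYN, the Src family kinase that phosphorylates both kinds of motif, spans chr8:55879835-56014169. It had 775 and 751 counts in the untreated and 846 and 962 counts in the hemin-treated libraries. Both hemin-treated libraries were above both untreated ones, and the log2 fold change was 0.24 (SE 0.053, 95% interval 0.12 to 0.35, edgeR adjusted p = 0.0185), a 1.18-fold increase. LYN ranked 744 of 1012 increases by size. The call was lost in DESeq2 (log2 fold change 0.25, DESeq2 adjusted p = 0.0516). It was also lost without untreated replicate 1 (0.22, edgeR adjusted p = 0.0927), without untreated replicate 2 (0.26, edgeR adjusted p = 0.0594) and without hemin replicate 2 (0.20, edgeR adjusted p = 0.0899), and on log2(TPM + 1) in limma (0.15, adjusted p = 0.413), with the direction kept each time.

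**Figure D3:**
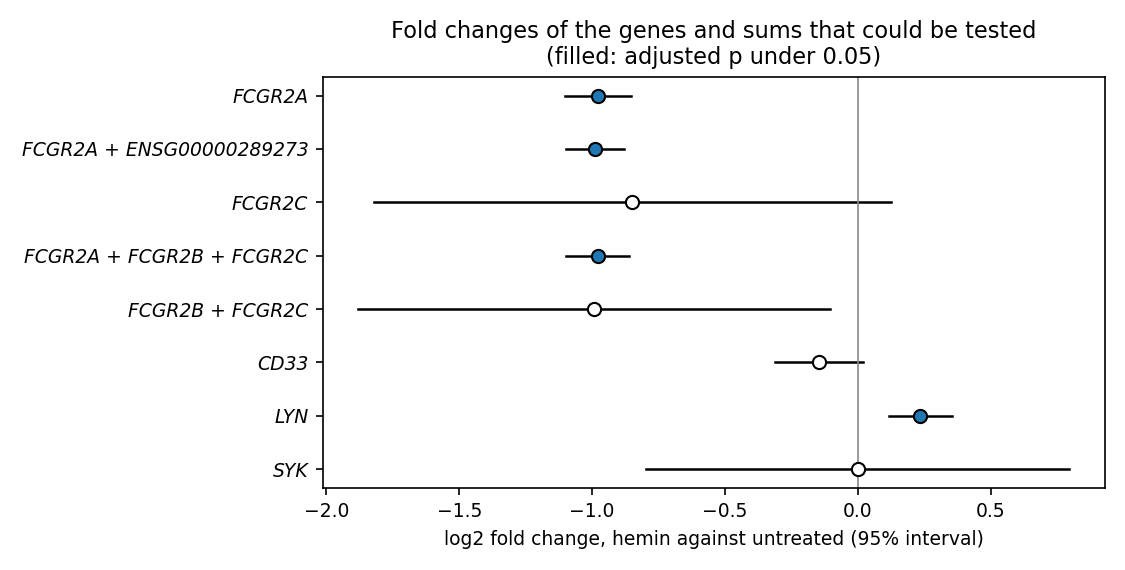
Log2 fold change after hemin (x axis) of each tested gene and of the summed counts, as points with 95% intervals from edgeR that are not adjusted over genes. Filled points had an adjusted p under 0.05. The intervals of FCGR2A and of both sums that include it lie between -1.10 and -0.85. Those of FCGR2C, CD33 and SYK cross 0, and LYN lies above 0.

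Over the 15 alternative settings the log2 fold change of FCGR2A ran from -1.05 to -0.91, that of CD33 from -0.18 to -0.11 and that of LYN from 0.15 to 0.27. FCGR2A was past the threshold in each of them and CD33 in none, and LYN lost its call in 6.

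**Figure D4:**
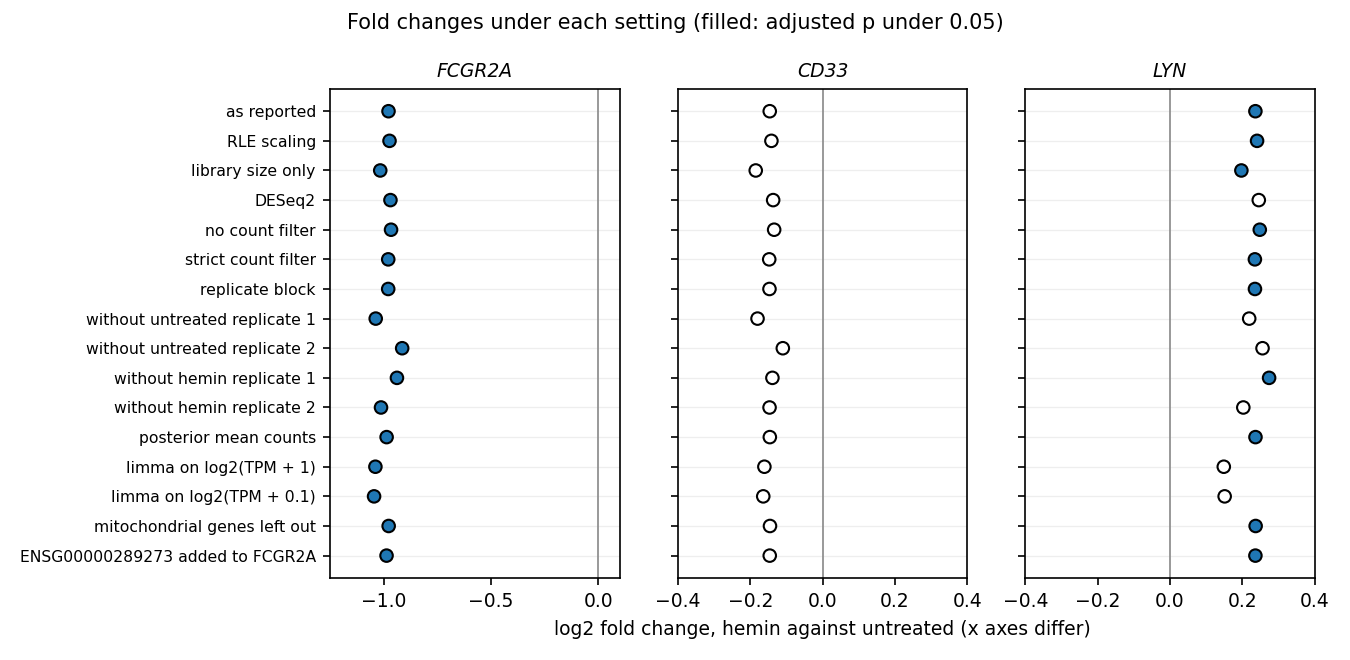
Log2 fold change of FCGR2A, CD33 and LYN (x axes, which differ between panels) under each setting of the analysis (y axis), filled where the adjusted p was under 0.05. FCGR2A stays between -1.05 and -0.91 and filled in all settings, CD33 stays below 0 and open, and LYN stays above 0 but is open in 6 settings.

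LYN was 1 of several Src family kinases transcribed here. It made up 34.3% and 34.2% of the summed TPM of the 9 family genes in the untreated and 34% to 35.4% in the hemin-treated libraries, and these shares overlapped. YES1, the most abundant of the family, had 76.4 and 72.8 TPM untreated and 74.8 and 92.7 TPM after hemin, and its counts rose from 1558 and 1486 to 1719 and 1914 (log2 fold change 0.25, edgeR adjusted p = 0.00591). CSK, the kinase that inhibits Src family members, rose as well, from 440 and 416 to 525 and 554 counts (0.33, edgeR adjusted p = 0.0101). BTK, a Tec family kinase downstream of SYK, fell from 839 and 740 to 630 and 663 counts (-0.30, edgeR adjusted p = 0.0115). Of the 21 other Src, Syk, Tec and related kinases, 13 were tested, 2 rose, 1 fell and 10 did not pass the threshold, beside 14.1% called in either direction over all genes tested. Their median log2 fold change was 0.12, beside -0.0048 over all genes.

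SYK, at chr9:90801787-90898549, had 21 and 14 counts in the untreated and 20 and 15 counts in the hemin-treated libraries. The groups overlapped, and the log2 fold change was -0.00037 (SE 0.35, 95% interval -0.80 to 0.80, edgeR adjusted p = 0.999), an interval too wide to exclude a change of the size seen in LYN or CD33. In TPM the groups did not overlap (0.76 and 0.88 against 0.89 and 1.21), but the length RSEM gave the gene moved from 2140 to 4973 bases between libraries, so the TPM of so few reads follows the choice of isoform. ZAP70, the other kinase of this family, had at most 2 counts. BTK at 52.4 to 62.4 TPM thus lay above SYK in every library.

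The inhibitory phosphatases named here were near the floor, while their broadly expressed relatives were not. PTPN6 (SHP1, chr12:6946468-6961316) had 2 and 6 counts in the untreated and 5 and 9 in the hemin-treated libraries, which overlap. Pooled over libraries this is 8 against 14 counts, a ratio of 1.74 (exact 95% interval 0.681 to 4.79, which covers counting error only). PTPN11, which encodes the related SHP2, ranged from 44.5 to 49.9 TPM. INPP5D (SHIP1, chr2:233059967-233207903) had 1 count in each of the 4 libraries, so no fold change is given, and INPPL1, which encodes the related SHIP2, ranged from 98.9 to 129 TPM.

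Among the 18 other inhibitory phosphatases and adaptors on the list, 14 were tested, 3 fell, 1 rose and 10 did not pass the threshold (median log2 fold change -0.047), beside the 14.1% called over all genes tested. PTPRJ, a receptor tyrosine phosphatase, fell from 92 and 81 to 46 and 53 counts (-0.81, edgeR adjusted p = 0.0156). INPPL1 fell by 0.20 on the log2 scale (edgeR adjusted p = 0.0222), and DOK3, an adaptor that restrains immune receptor signalling, rose by 0.21 (edgeR adjusted p = 0.0241). PTPRC (CD45), named after its values were seen as the most abundant of the list, had 236 and 230 TPM in the untreated and 214 and 208 TPM in the hemin-treated libraries (-0.13, edgeR adjusted p = 0.0508).

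The molecules that carry an ITAM signal onward were mostly transcribed. Of 44 listed, 36 were tested, 2 rose, 2 fell and 32 did not pass the threshold, which is 4 called among 36 beside 14.1% of all genes, and the median log2 fold change was -0.014. GRAP2, the adaptor GADS, fell from 297 and 282 to 173 and 210 counts (-0.60, edgeR adjusted p = 0.00349). PIK3CD, the catalytic subunit of PI3 kinase δ, fell from 777 and 760 to 648 and 701 (-0.20, edgeR adjusted p = 0.0395). MALT1, the protease that activates NF-κB, rose from 830 and 836 to 1002 and 1096 (0.32, edgeR adjusted p = 0.00459), and the adaptor CRK rose from 373 and 343 to 430 and 440 (0.27, edgeR adjusted p = 0.0340).

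Other Fc receptors were few. Of 20 with a gene ID, 8 were at 0 in every library, beside 28814 of all 61498 genes. Only 3 passed the filter and 1 of these fell, beside 7.14% called lower over all genes tested. The median log2 fold change of these 3 genes was -0.88, beside -0.0048 over all genes tested. FCGR1A, the high-affinity IgG receptor, which signals through the γ chain, fell from 66 and 51 counts to 24 in each hemin-treated library (log2 fold change -1.29, SE 0.24, edgeR adjusted p = 0.00945). Its level was 13.4 and 10.7 TPM untreated and 3.76 and 4.24 TPM after hemin, below FCGR2A in every library. FCGRT, the neonatal Fc receptor, had 28 and 29 against 15 and 16 counts (-0.88, edgeR adjusted p = 0.0973), and TRIM21, a cytosolic antibody receptor, had 62 and 69 against 79 and 69 counts (0.17, edgeR adjusted p = 0.610), both named after their values were seen. FCGR3A had at most 1 count.

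The neighbours of FCGR2A had values on both sides of 0. HSPA6, a heat shock gene that starts 527 bases after the end of FCGR2A on the same strand, fell from 83 and 64 to 40 and 44 counts (-0.81, SE 0.20, edgeR adjusted p = 0.0287). It has a close copy, HSPA7, listed at 0.20 to 1.08 TPM, with which its reads may be divided. ATF6, 242.3 kb away, fell by 0.24 on the log2 scale (edgeR adjusted p = 0.00966). Of the 19 listed neighbours 8 were tested, 2 fell and 6 did not pass the threshold, beside 7.14% called lower over all genes tested. Their median log2 fold change was -0.062. SDHC, 142.2 kb before FCGR2A, had a value of -0.13, and DUSP12, 225.7 kb after it, had 0.28, neither past the threshold.

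**Figure D5:**
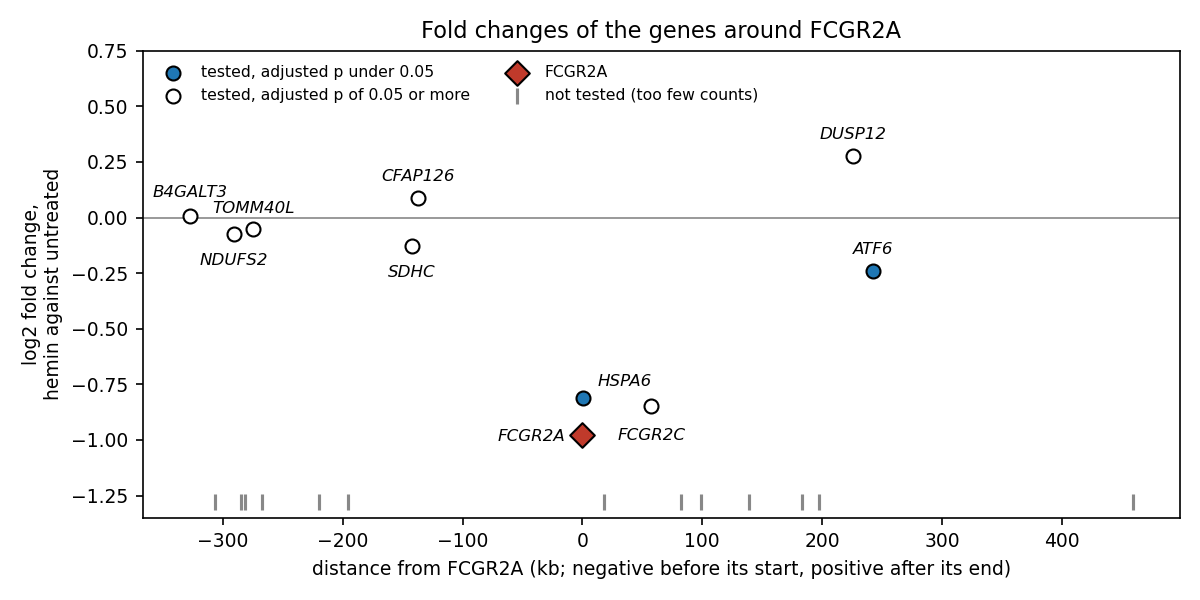
Log2 fold change after hemin (y axis) of the genes around FCGR2A against their distance from it in kb (x axis), as 1 point per tested gene, filled where the adjusted p was under 0.05. Grey ticks mark genes with too few counts. FCGR2A, HSPA6 and FCGR2C lie between -0.98 and -0.81, and the other tested neighbours between -0.24 and 0.28.

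Over the 4 libraries, the summed FCGR2 count was most like ENSG00000283403, ARRDC4 and KLF10, with a root mean square difference of 0.031, 0.035 and 0.035 in log2 CPM, counts scaled to library size, centred on each gene. ARRDC4 had 1627 and 1612 counts in the untreated and 793 and 844 in the hemin-treated libraries. KLF10 had 395 and 392 against 183 and 220, and ENSG00000283403 had 32 and 32 against 15 and 16. These genes were chosen for the likeness and carry no test.

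The libraries held 7801824 and 7455447 expected counts in the untreated and 7513843 and 8241534 in the hemin-treated cells. All 10 erythroid markers were at 1 TPM or more, summing to 6305 to 6510 TPM in the untreated and 7896 to 8420 TPM in the hemin-treated libraries. Of a longer erythroid list 19 of 20 genes were tested, 6 rose and 2 fell, beside 7% called higher and 7.14% lower over all genes tested. The median log2 fold change of the list was 0.16, beside -0.0048 over all genes. The 2 that fell, named after their values were seen, were NFE2, an erythroid transcription factor gene, by 0.31 and ALAS2, the first enzyme of erythroid heme synthesis, by 0.25 on the log2 scale (edgeR adjusted p = 0.0185 and 0.0252). The embryonic globins HBE1 and HBZ rose by 0.41 and 0.70 on the log2 scale (edgeR adjusted p = 0.000445 and 0.000151). HBA1 and HBA2, near-identical copies whose reads are divided, rose by 0.80 and 0.70 (edgeR adjusted p = 4.65e-05 and 0.00050), while HBG1 and HBG2, also alike, had 0.26 and 0.19 (edgeR adjusted p = 0.0658 and 0.0727). Of 9 myeloid markers 2 reached a mean of 1 TPM, SPI1 and ITGAM. MPO and ELANE were at 0, and the summed level was 10.4 to 10.7 TPM untreated and 9.59 to 11.2 TPM after hemin. FCGR2A, CD33 and LYN were at 42.1 TPM or more in libraries where MPO and ELANE, granule genes of myeloid cells, were not read. Of other granule genes, CTSG was at 0 too, but AZU1 had 0.67 to 3.23 TPM and PRTN3 at most 1.14 TPM.

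The longer lists of other cell types gave few tested genes. Over all genes tested, 7% were called higher and 7.14% lower, with a median log2 fold change of -0.0048. Of 32 myeloid genes 5 were tested and 1 fell, AZU1, from 20 and 26 to 6 and 10 counts (-1.52, edgeR adjusted p = 0.0411), while SPI1, which encodes PU.1, had 41 and 48 against 46 and 52 counts (0.13, edgeR adjusted p = 0.755). CYBB, a subunit of the phagocyte oxidase, and the peptidase gene ANPEP had values of 0.071 and -0.23 (edgeR adjusted p = 0.803 and 0.799). ITGAM, named after its values were seen, had 18 and 12 against 8 and 8 counts (-0.90, edgeR adjusted p = 0.217). The median of the 5 was -0.23. B lymphoid genes gave 1 tested of 10 (CD37, -0.080, edgeR adjusted p = 0.862), with MS4A1 and PAX5 at 0 and BANK1 at 1 to 12 counts. The 14 T and NK genes gave none, with CD3E and CD2 at 0, TRBC1 at 4 to 6 counts, PRF1 at 2 to 9 and NKG7 at 0 to 3. Of 13 megakaryocyte and platelet genes 4 were tested and 1 rose, GP1BB, from 161 and 194 to 256 and 302 counts (0.64, edgeR adjusted p = 0.00783), with GP9 and PF4 at 0 and a median of 0.20. GP6 and ITGA2B, a platelet collagen receptor and an integrin chain, had 0.56 and -1.15 (edgeR adjusted p = 0.197 and 0.123). The part of any cell type in the FCGR2A decrease was not tested.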

How the data were processed

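Poly(A) RNA of 2 untreated and 2 hemin-treated K562 libraries was sequenced with 50-base reads by the authors, trimmed with Trimmomatic 0.39 and quantified with RSEM 1.3.1 (STAR 2.7.5c, GRCh38, Ensembl 106). The deposited expected counts are read numbers per gene as RSEM estimates them, with shared reads divided between genes and no normalization. The deposited posterior mean counts and posterior SDs, in reads, describe that division. The deposited TPM are scaled by effective length. The deposited FPKM and the authors' pooled means were not used. No strand option is given for the counting, so antisense reads cannot be told apart.

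The 9 members and all gene lists were chosen with earlier results of these data known. Named genes are all members, up to 4 called genes per list (otherwise the 2 most abundant, or for markers the 3 most abundant), and the 3 genes closest to the summed FCGR2 count in centred log2 CPM (prior count 2). Results of 2 genes that this rule named are not reported here.

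Expected counts were rounded, filtered with filterByExpr, scaled with TMM factors and put to the quasi-likelihood test of edgeR 4.0.16 in R 4.3.3 (condition as the only term, Benjamini-Hochberg, threshold 0.05). Summed FCGR2 counts replaced the rows they add. The test was checked on simulated data. The mean chi-square per gene between replicates was 1.83 (untreated) and 2.24 (hemin), above sampling noise. Alternatives were RLE factors, library size alone, DESeq2 1.42.0, no filter, and a filter of at least 20 counts in both libraries of a condition. Further alternatives were a replicate block, each library left out, posterior mean counts, and limma 3.58.1 on log2(TPM + 1) and log2(TPM + 0.1). The last were mitochondrial genes (12.8% to 13.6% of counts) left out and, chosen after seeing the data, ENSG00000289273 added to FCGR2A. Coordinates come from GENCODE 44, which matched 99.84% of the gene IDs, and promoters from RefSeq (GRCh38.p14). Shared sequence was measured as 50-base words over GENCODE 44 transcripts. Intervals of ratios and shares are exact, at 95%, and a count of 0 was taken to allow 3 counts.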

Additional observations from a re-analysis of the deposited data

How the results depend on the processing

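FCGR2A and the summed FCGR2 count kept their direction and their call under all 15 alternatives (FCGR2A from -1.05 to -0.91, adjusted p at most 0.0148), and FCGR2C, CD33 and the sum of FCGR2B and FCGR2C kept theirs, with no call, wherever a value could be had. LYN lost its call in DESeq2 (0.25), in limma on log2(TPM + 1) (0.15) and log2(TPM + 0.1) (0.15), and with any library but hemin replicate 1 left out. With a library left out it ran from 0.20 to 0.27. SYK, near 0, changed sign with RLE factors (0.0040), DESeq2 (0.015), no filter (0.013), the replicate block (0.0086), mitochondrial genes left out (0.000062) and limma (0.17 and 0.31), and ran from -0.28 to 0.28 with a library left out. Members called numbered 1 in DESeq2 and in both limma fits, and 1 to 2 with a library left out. Genes called numbered 1068 in DESeq2, 47 and 49 in the limma fits, and 981 to 1818 with a library left out (981 without untreated replicate 1 and 1069 without untreated replicate 2). A lone library was taken to vary as the other group does. The cause of these changes was not tested. Same-numbered libraries did not deviate together over the genes tested (correlation 0.0047). So few libraries cannot show whether they share a batch, and the labels give only the replicate number. The replicate block gave 1741 called genes, with -0.98 for FCGR2A and 0.23 for LYN, and changed no member's call. FCGR2B, FCER1G, PTPN6 and INPP5D had no value except with no filter, where none was called. FCGR2C and SYK had none with the filter at 20 counts. Depth limits these 6 genes, which had at most 24 counts in a library.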
